A study of Homo sapiens with 12 samples.

Results

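The genes described here are ASNS, TRIB3 and WARS, members of the transcriptional response to amino-acid shortage, in resting and activated Jurkat cells with and without HuR. They were chosen by symbol from the authors' deposited table of changed genes. Of 7 symbols looked for, these 3 are among the 2587 genes of the table. CHAC1, PSAT1, DDIT3 and ATF3 are not among them, and their values were not analysed here. The table holds only genes that changed by more than 4-fold with a false discovery rate (FDR) below 0.05 in at least 1 of 4 comparisons, so a gene outside it is not shown to be unchanged. All 3 genes were listed through activation of WT cells. TRIB3 was also listed through activated HuRKO against activated WT cells, and ASNS through activation of HuRKO cells.

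When an amino acid runs short, uncharged tRNAs activate the kinase GCN2, which phosphorylates the translation factor eIF2. Most translation then falls while that of the transcription factor ATF4 rises, and ATF4 binds C/EBP-ATF response elements in genes that supply amino acids. The same route, called the integrated stress response, is reached from other stresses through sister kinases of GCN2. Activated T cells raise amino acid uptake and use as they grow. ASNS makes asparagine from aspartate and glutamine. TRIB3 is a pseudokinase that binds AKT and ATF4 and restrains ATF4 activity. WARS is the cytosolic tryptophanyl-tRNA synthetase, which is also a well-known interferon-gamma inducible gene.

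The 12 poly(A) RNA libraries come from Jurkat, an established human T-cell leukaemia line, and form 4 groups of 3. HuRKO cells are knocked out for HuR, the product of ELAVL1, which binds mRNAs at stretches rich in A and U, and the labels do not say how the knockout was made or whether it is 1 clone. The groups are activated HuRKO cells, activated wild-type (WT) cells, resting HuRKO cells and resting WT cells. Activation was 24 h with 20 ng/mL PMA, which activates protein kinase C, and 500 ng/mL ionomycin, which raises calcium, and resting cells were left without either for the same time. All cells grew in RPMI1640 with serum, and no group was deprived of an amino acid according to the labels.

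The table gives 1 mean, and 1 log2 change with its FDR per comparison, so no value per library, no spread beside a level and no depth per library can be given. The group levels given here are in normalised counts and were rebuilt from that mean and the changes. The FDR is not a measure of the spread between replicates, since it also depends on the size of the change and on the counts. Nothing in the labels says that the replicates came from separate cultures, so the spread behind the FDR may be technical. ELAVL1, the targeted gene, was at 596 in resting HuRKO against 4042 in resting WT cells, and at 471 in activated HuRKO against 2552 in activated WT cells. Of 17 listed chromosome Y genes, 16 were lower in HuRKO cells in both states. Of all listed genes, 15.4% were lower at rest and 35.4% after activation. Chromosome Y genes without a large change are not listed, so the count covers listed genes only. The cell populations differed in these genes as well as in ELAVL1, and these differences and the loss of HuR cannot be told apart below. Of 14 T-cell markers, 5 are listed (CD2, CD7, CD28, TRAC and PTPRC), with levels between 380.2 and 26320. Their sum was 54336 in activated HuRKO against 32893 in activated WT cells and 10194 in resting HuRKO against 15411 in resting WT cells. TRAC was 6.36-fold and CD2 4.63-fold lower in resting HuRKO than in resting WT cells. In activated HuRKO against activated WT cells CD28 was 6.74-fold and PTPRC 4.17-fold higher. There CD2 was 3.27-fold and TRAC 1.30-fold lower, and CD7 was not called (FDR 0.96 in the authors' deposited table). Of the 5, 2 were thus higher and 2 lower after activation, beside 42.2% higher and 35.4% lower in the table. At rest 3 were lower and 2 not called, beside 15.4% lower in the table. Of 5 myeloid, 5 B-cell and 5 erythroid markers, 2, 1 and 2 are listed. Their levels reached at most 74.2, 19.8 and 31.6, and the erythroid sum was 54.3 in activated HuRKO against 4.46 in activated WT cells and 48.1 in resting HuRKO against 2.95 in resting WT cells. The 1 listed B-cell marker, CD79B, was at 17.2 in activated HuRKO against 19.8 in activated WT cells and at 10.06 in resting HuRKO against 1.41 in resting WT cells. The myeloid sum was 106 in activated HuRKO against 74.3 in activated WT cells and 10.04 in resting HuRKO against 1.10 in resting WT cells. The part of these markers in the results was not tested.

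Promoter letters are shown because ATF4 is known to act on ASNS, and interferon signalling on WARS, through short elements near a start site. RefSeq windows from 250 bases before to 50 bases after a start (GRCh38.p14, the assembly behind hg38) were found for all 3 genes, WARS under its newer symbol WARS1. There were 2 windows for ASNS, 3 for TRIB3 and 2 for WARS. The C/EBP-ATF response element was searched as TGATGNAA on both strands, and 3.62% of all 35116 windows hold it. Counted by gene, 4.46% of genes hold it in at least 1 window. It occurs 1 time in the ASNS windows and 0 times in those of TRIB3 and WARS. The interferon-stimulated response element (ISRE) was searched on both strands as GAAA, any 2 letters and GAAA, which 3.57% of windows hold, and the gamma-activated site as TTCNNNGAA, which reads the same on both strands and which 7.66% of windows hold. Both occur in the window of the downstream WARS start and in no window of ASNS or TRIB3. The matches are printed on the strand of the gene with the matched letters in capitals. The ASNS match begins 68 bases before its start, and the WARS matches begin 55 and 142 bases before the downstream start. No printed match overlaps another. A match does not show that a factor binds there, and its absence says only that these letters are not in these windows.
ASNS, C/EBP-ATF response element, chr7:97872458-97872487, minus strand: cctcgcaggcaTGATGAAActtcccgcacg
WARS, ISRE, chr14:100375383-100375412, minus strand: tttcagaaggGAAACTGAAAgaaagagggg
WARS, gamma-activated site, chr14:100375470-100375499, minus strand: gctcaagtgtTTCTGAGAAtctgggtgatt

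TRIB3 (ENSG00000101255.10, chromosome 20, 362835 to 397559, plus strand, hg38) rose on activation in WT cells, while its change in HuRKO cells did not pass the threshold. Its level was 1141 in activated HuRKO, 6022 in activated WT, 1133 in resting HuRKO and 1079 in resting WT cells. Activated WT cells stood alone, and the other groups lay within 1.06-fold of each other. In the authors' deposited table activation changed TRIB3 by 0.01 on the log2 scale in HuRKO cells (FDR 0.96) and by 2.48 in WT cells (FDR 3.0e-74), the second a 5.58-fold rise. HuRKO cells differed from WT cells by 0.07 at rest (FDR 0.79) and by -2.40 after activation (FDR 6.9e-70) in the authors' deposited table, so TRIB3 was 5.28-fold lower in activated HuRKO cells.

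WARS (ENSG00000140105.17, chromosome 14, 100333788 to 100376805, minus strand, hg38) rose on activation in both genotypes, by 1.93-fold in HuRKO and by 9.13-fold in WT cells. Its level was 5662 in activated HuRKO, 22483 in activated WT, 2933 in resting HuRKO and 2461 in resting WT cells. In the order of levels activated WT cells came first, then activated HuRKO cells, then resting HuRKO cells, and resting WT cells came last. The log2 changes on activation in the authors' deposited table were 0.95 in HuRKO (FDR 1.7e-23) and 3.19 in WT cells (FDR 3.3e-256). After activation WARS was 3.97-fold lower in HuRKO than in WT cells (log2 -1.99, FDR 8.1e-102 in the authors' deposited table), just short of the 4-fold that lists a gene. At rest it was 1.19-fold higher in HuRKO cells (log2 0.25, FDR 0.035 in the authors' deposited table), the smallest called change of the 3 genes. Exons of WDR25 and of the antisense gene AL157871.4, on the opposite strand, cover 287 and 165 of the 3092 bases of the longest coding WARS transcript in GENCODE 29. The libraries are directional, but the strand setting of the counting is not given in the sources used here.

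ASNS (ENSG00000070669.16, chromosome 7, 97852118 to 97872542, minus strand, hg38) rose on activation in both genotypes and was lower in HuRKO cells in both states. Its level was 59.5 in activated HuRKO, 117 in activated WT, 6.07 in resting HuRKO and 15.1 in resting WT cells. Within each state the HuRKO level was the lower one, and both activated levels were above both resting levels. Activation raised ASNS 9.80-fold in HuRKO cells (log2 3.29, FDR 2.0e-13 in the authors' deposited table) and 7.74-fold in WT cells (log2 2.95, FDR 6.0e-17 in the authors' deposited table). HuRKO cells were 2.48-fold lower at rest (log2 -1.31, FDR 0.030 in the authors' deposited table) and 1.96-fold lower after activation (log2 -0.97, FDR 0.0014 in the authors' deposited table). These are low counts, although all 4 levels lie above the floor of 1 normalised count, which stands for 3 counts over the 3 libraries of a group. In GENCODE 29 the exons of AC079781.5, a transcript on the same strand, cover 1985 of the 2356 bases (84.3%) of the longest coding ASNS transcript. How the authors assigned reads shared by both is not given in the sources used here, so the level of ASNS and its changes are uncertain.

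**Figure D1:**
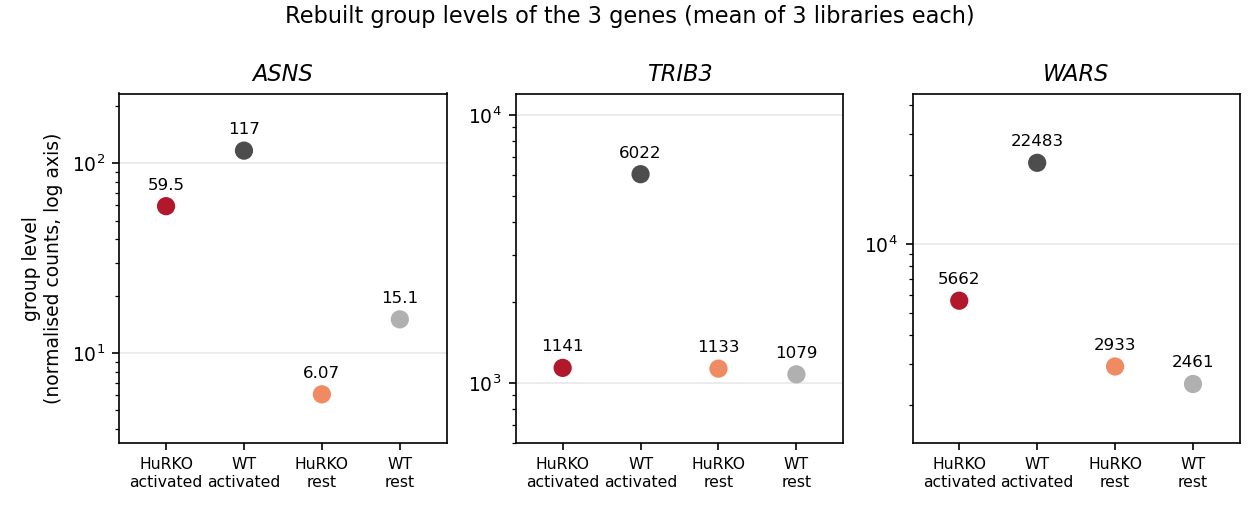
Rebuilt group levels in normalised counts (vertical log axis, a separate scale for each gene) for activated HuRKO, activated WT, resting HuRKO and resting WT cells. Each point stands for the mean of 3 libraries and has no error of its own. TRIB3 is at 6022 in activated WT cells and between 1079 and 1141 elsewhere, WARS is at 5662 in activated HuRKO against 22483 in activated WT cells, and ASNS is at 59.5 against 117.

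Levels of TRIB3, WARS and ASNS were compared with each other only per kilobase of the longest coding transcript. The marker sums and ranges above were not corrected for length. On that scale WARS was the most abundant of the 3 genes in every group and ASNS the least. In activated HuRKO cells WARS was at 1831, TRIB3 at 456 and ASNS at 25.3 normalised counts per kilobase. In activated WT cells WARS was at 7271, TRIB3 at 2410 and ASNS at 49.5. In resting HuRKO cells the values were 948 for WARS, 453 for TRIB3 and 2.58 for ASNS, and in resting WT cells they were 796 for WARS, 432 for TRIB3 and 6.40 for ASNS.

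After activation, when HuRKO cells are set against WT cells, all 3 genes were lower (FDR below 0.05 in the authors' deposited table). Among all 2587 listed genes 77.6% were called in this comparison, and 35.4% were called lower. The median log2 change was -1.99 for the 3 genes and 0.36 over the table. Nothing is read from this count or from these medians, since all 3 genes were listed through high values in activated WT cells, the group HuRKO cells are set against here, and TRIB3 also through this comparison itself. As a description, 15.4% of the listed genes had a lower change than TRIB3, 22.8% a lower one than WARS and 33.7% a lower one than ASNS. At rest 2 of the 3 genes were called, ASNS lower and WARS higher, against 40.5% of the table, and the medians were 0.07 for the 3 genes and 0.18 for the table. The 3 genes thus had no common direction at rest.

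Activation raised 2 of the 3 genes in HuRKO cells (background 76.7% called, 58.1% higher) and all 3 in WT cells (background 73.9% called, 52.0% higher). The median log2 change on activation was 0.95 in HuRKO and 2.95 in WT cells for the 3 genes, and 1.45 in HuRKO and 1.42 in WT cells over the table. Since activation of WT cells chose all 3 genes, nothing is read from that count. The response in HuRKO minus the response in WT cells was -2.47 for TRIB3, -2.24 for WARS and 0.34 for ASNS on the log2 scale, with a median of -0.07 over the table. As ratios, the fold rise in WT cells was 5.54 times that in HuRKO cells for TRIB3 and 4.73 times for WARS, and the fold rise in HuRKO cells was 1.27 times that in WT cells for ASNS. Each difference subtracts the WT response through which the gene was listed, so it is given as a description only. Of the 2587 listed genes, 361 had a lower difference than TRIB3, 408 a lower one than WARS and 1457 a lower one than ASNS. The difference between responses has no deposited FDR and was not tested. The 4 comparisons share libraries, so their values for a gene are not independent of each other.

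**Figure D2:**
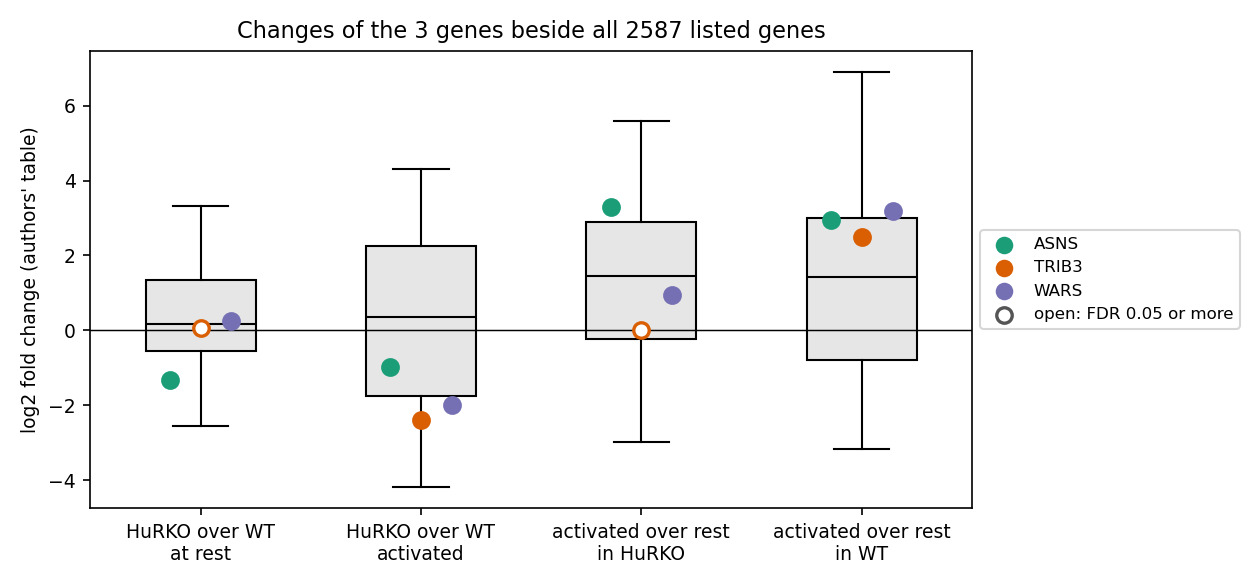
Log2 fold changes from the authors' deposited table for ASNS, TRIB3 and WARS in the 4 comparisons (coloured points, open where the FDR is 0.05 or more), over boxes that show the median and quartiles of all 2587 listed genes with whiskers to the 5th and 95th percentile. TRIB3 lies at 0.07 and 0.01 in the comparisons where its point is open, and all 3 points lie below 0 for activated HuRKO over activated WT cells.

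**Figure D3:**
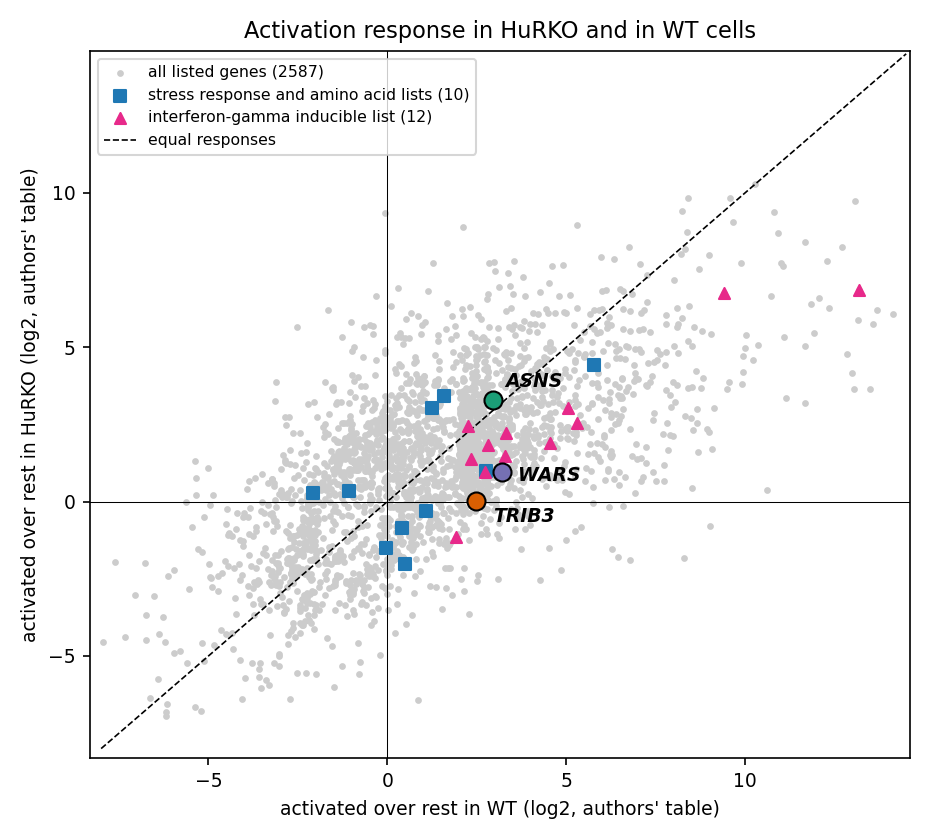
Each point is 1 listed gene, placed by its log2 change on activation in HuRKO cells (vertical axis) and in WT cells (horizontal axis), as given in the authors' deposited table. Equal responses lie on the dashed line. ASNS lies close to the line (3.29 in HuRKO and 2.95 in WT cells), while TRIB3 (0.01 in HuRKO and 2.48 in WT cells) and WARS (0.95 in HuRKO and 3.19 in WT cells) lie below it.

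Many known HuR sites lie in 3' UTRs, so the 3' UTR of the longest coding transcript of each gene in GENCODE 29 was searched. The pentamer ATTTA and runs of 7 or more T were counted on the transcribed strand. The 3' UTRs of TRIB3, WARS and ASNS are 869, 1057 and 141 bases long, and ATTTA occurs 0 times and such a T run 0 times in each. The longest run of T was 4 in TRIB3, 4 in WARS and 3 in ASNS. Among 19096 coding genes with a 3' UTR, whose median length is 1030 bases, 66.8% hold ATTTA and 43.9% a T run of that length. Shorter 3' UTRs than that of ASNS are found in 8.88% of these genes, against 45.2% for TRIB3 and 50.7% for WARS. Other transcripts, and other letters that HuR may bind, were not searched.

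Few other genes of the pathway are listed. Of 120 genes in 5 lists (regulators and targets of the integrated stress response, amino acid synthesis, amino acid transport, tRNA synthetases, and the unfolded protein response of the endoplasmic reticulum) 10 are in the table. ATF4, the eIF2 kinases and ATF5 are among those not listed, as are all 36 other tRNA synthetases and all 17 genes of the unfolded protein response, and none of these was analysed here. WARS is therefore the only listed tRNA synthetase of those looked for. In activated HuRKO against activated WT cells, 5 of the 10 were higher and 5 lower, beside 42.2% higher and 35.4% lower in the table. At rest 3 of the 10 were higher, 2 lower and 5 not called, beside 25.0% higher and 15.4% lower in the table.

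The 3 listed genes of amino acid synthesis were all lower in activated HuRKO than in activated WT cells (35.4% of the table was lower). All 3 were listed through this comparison, BCAT1 and ASS1 through no other, so the count follows from the selection. PYCR1, which makes proline, was at 579 in activated HuRKO against 2910 in activated WT cells (log2 -2.33, FDR 9.9e-59 in the authors' deposited table). BCAT1, the cytosolic branched-chain aminotransferase, was at 1504 in activated HuRKO against 10760 in activated WT cells (log2 -2.84, FDR 2.4e-120 in the authors' deposited table). ASS1, which joins citrulline and aspartate on the way to arginine, was at 186 in activated HuRKO against 830 in activated WT cells (log2 -2.16, FDR 2.5e-37 in the authors' deposited table). On activation all 3 fell in HuRKO cells (18.5% of the table fell). In WT cells all 3 rose (52.0% of the table rose), and some of these changes were small. Listing through low activated HuRKO against high activated WT levels favours such a fall and rise. PYCR1 was also listed through its fall in HuRKO cells, so nothing is read from these counts. PYCR1 fell 4.07-fold in HuRKO cells and rose 1.41-fold in WT cells, BCAT1 fell 1.23-fold (FDR 0.027 in the authors' deposited table) in HuRKO cells and rose 2.12-fold in WT cells, and ASS1 rose 1.33-fold in WT cells (FDR 0.022 in the authors' deposited table). With a minimum of 2-fold, 1 of the 3 fell in HuRKO cells and 1 rose in WT cells. With an FDR below 0.001, 2 of the 3 fell in HuRKO cells and 1 rose in WT cells. At rest BCAT1 and ASS1 were lower in HuRKO cells, at 1843 and 336 against 5080 and 624 in WT cells, and PYCR1, at 2353 in HuRKO and 2065 in WT cells, was not called (FDR 0.38 in the authors' deposited table).

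The 3 listed amino acid transporters were all higher in activated HuRKO than in activated WT cells (42.2% of the table was higher, 77.6% called). SLC7A7 and SLC7A8 were themselves listed through this comparison, and SLC38A5 through the one at rest, so the count follows in part from the selection. SLC38A5, which carries glutamine and other neutral amino acids with sodium, was at 313 in activated HuRKO against 129 in activated WT cells and at 891 in resting HuRKO against 132 in resting WT cells. SLC7A7, an exchanger of cationic for neutral amino acids, and SLC7A8, an exchanger of neutral ones, were at 44.8 and 94.1 in activated HuRKO against 9.62 and 14.1 in activated WT cells. The direction is opposite to that of TRIB3, WARS and ASNS in the same comparison. On activation SLC7A7 fell 4.19-fold in WT cells and was not called in HuRKO cells (FDR 0.46 in the authors' deposited table). SLC38A5 fell 2.84-fold in HuRKO cells and was not called in WT cells (FDR 0.90 in the authors' deposited table). SLC7A8 rose in both genotypes, 10.6-fold in HuRKO and 3.02-fold in WT cells. In the authors' deposited table the log2 changes after activation were 1.28 for SLC38A5 (FDR 4.0e-13), 2.22 for SLC7A7 (FDR 6.8e-08) and 2.74 for SLC7A8 (FDR 5.3e-10).

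Of the sister pseudokinases of TRIB3, both TRIB1 and TRIB2 are listed. Both were counted in the stress response list, which does not show that they belong to that response. TRIB1 was at 565 in activated HuRKO, 784 in activated WT, 26.2 in resting HuRKO and 14.3 in resting WT cells. It rose on activation in both genotypes. Like TRIB3, TRIB1 was lower in activated HuRKO than in activated WT cells (log2 -0.47, FDR 0.031 in the authors' deposited table). At rest TRIB1 was higher in HuRKO cells (log2 0.87, FDR 0.044 in the authors' deposited table). TRIB2 was at 893 in activated HuRKO, 207 in activated WT, 702 in resting HuRKO and 434 in resting WT cells. It was thus 4.31-fold higher in activated HuRKO than in activated WT cells, where TRIB3 was lower (log2 2.11, FDR 1.3e-69 in the authors' deposited table), and it was listed through that comparison alone. Of the remaining listed genes of the stress response list, the growth factor gene VEGFA was lower in activated HuRKO cells (523 against 1398 in WT). KLHL24, a substrate adaptor of a ubiquitin ligase, was higher (1274 against 291 in WT).

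**Figure D4:**
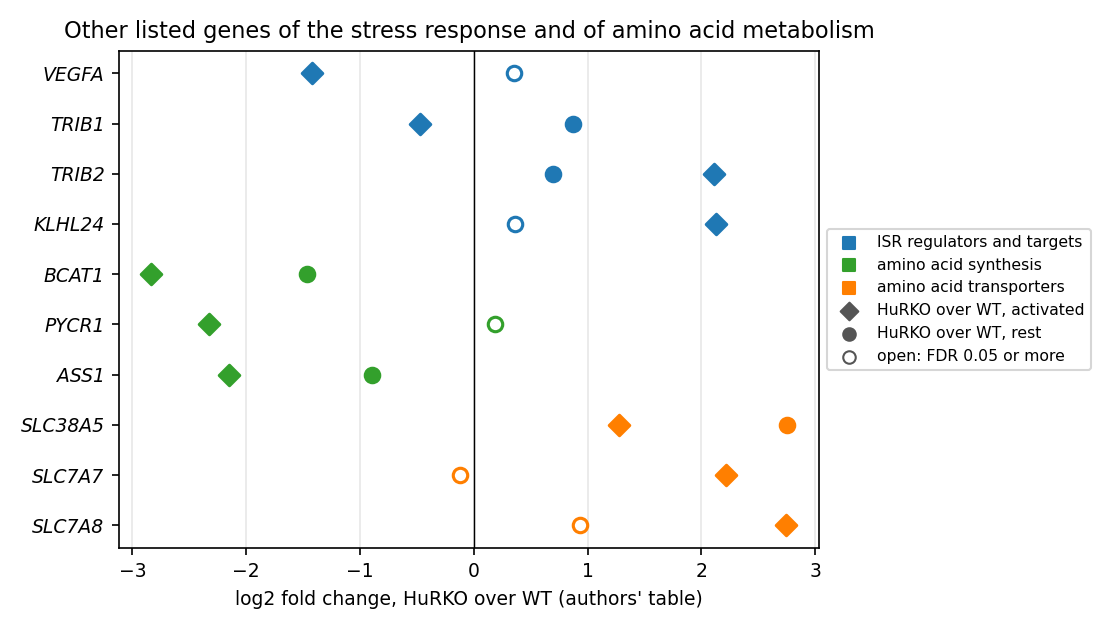
Log2 fold changes of HuRKO over WT cells after activation (diamonds) and at rest (circles) from the authors' deposited table for the 10 listed genes of the pathway lists other than TRIB3, WARS and ASNS, open where the FDR is 0.05 or more. After activation the 3 synthesis genes lie between -2.84 and -2.16, the 3 transporters between 1.28 and 2.74, and the stress response genes on both sides of 0.

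Because WARS is also interferon-gamma inducible, and its downstream start carries the ISRE and gamma-activated letters shown, it was set beside a list of 24 such genes, of which 12 are in the table. All 12 were lower in activated HuRKO than in activated WT cells (35.4% of the table was lower), with a median log2 change of -2.33 against -1.99 for WARS. The largest changes in the authors' deposited table were those of CD274 (-5.05), GBP2 (-3.38), GBP5 (-2.90) and IRF8 (-2.89). On activation 11 of the 12 rose and IRF8 fell in HuRKO cells (58.1% of the table rose), with a median log2 change of 2.07, and all 12 rose in WT cells (52.0% of the table rose), with a median of 3.30. At rest 1 was higher and 3 were lower in HuRKO cells, and 8 were not called, beside 25.0% higher, 15.4% lower and 40.5% called in the table. Some of these levels were low. The higher gene, GBP2, was at 7.70 in resting HuRKO against 1.00 in resting WT cells, where the floor is 1. Among the 3 lower genes CD274 was at 4.02 in resting HuRKO against 21.5 in resting WT cells. Of the 12, 11 were listed through activation of WT cells, and IRF8 through activated HuRKO against activated WT cells. A gene enters the table by a change of more than 4-fold, so these counts describe the listed genes and support nothing about the list as a whole.

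The genes with 4 log2 changes nearest to those of each gene were taken by Euclidean distance over the 4 comparisons of 4 group means. No gene was named for more than 1 of TRIB3, WARS and ASNS. The lack of a shared gene is not read as a difference, because few neighbours were named per gene. The activation changes in HuRKO cells alone lay apart, at 0.01 for TRIB3, 0.95 for WARS and 3.29 for ASNS. For TRIB3 the nearest genes were RILPL2 (distance 0.36), the bicarbonate transporter gene SLC4A4 (0.40) and the synaptic vesicle gene SYP (0.46). RILPL2 was at 1241 in activated HuRKO, 5969 in activated WT, 1019 in resting HuRKO and 938 in resting WT cells. For WARS they were the monoglyceride lipase gene MGLL (0.25), ARMC9 (0.39) and TBKBP1 (0.44). MGLL was at 112 in activated HuRKO, 390.3 in activated WT, 59.3 in resting HuRKO and 47.3 in resting WT cells. For ASNS they were SLAMF6, a surface receptor of lymphocytes (0.17), NLRC5, an activator of class I HLA genes (0.67), and LACC1 (0.77), whose level in resting HuRKO cells was below the floor. SLAMF6 was at 1233 in activated HuRKO, 2387 in activated WT, 114 in resting HuRKO and 291 in resting WT cells. The nearness is a description of 4 group means and is not a test.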

How the data were processed

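Jurkat RNA was sequenced in 12 libraries, 3 in each of 4 groups taken from the sample titles. Per the labels' protocols, directional libraries were made with an NEBNext Ultra kit from RiboZol RNA. TopHat and Bowtie2 with hg38 were used, per the submitters' processing notes. How reads were counted, on which strand, and how changes were tested is not given in the sources used here. The deposited table holds, per the file headers, a signal called baseMean, taken as normalised counts averaged by the authors over all libraries, and for each of 4 comparisons a log fold change and its FDR. The deposited changes were taken as log2 values. The header gives no base. All 2587 genes have a called change beyond 2 (smallest 2.00 in size), that is 4-fold on base 2. The FDR is a p-value already adjusted by the authors, and a call is an FDR below 0.05.

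Group levels were rebuilt from the mean and the changes, since the changes of every 1 of the 2587 genes add up around the groups (tolerance 1e-06), and the method was checked on simulated levels. The depth per library is unknown, so no interval was computed. The floor of 3 counts over a group covers counting error only. The number of unmapped per-sample columns was 0. Genes were located in GENCODE 29 by their IDs, of which 2577 matched without the version. The ASNS, TRIB3 and WARS rule and the gene lists were chosen with earlier results of these data known. The lists were the pathway, interferon-gamma and marker lists. Of 4 epithelial markers 0 are listed. All 3 genes are named. Of the pathway lists, genes called in at least 1 HuRKO over WT comparison may be named. Of the interferon-gamma list the 4 largest changes are named. The 3 nearest genes by the 4 changes leave out pseudogenes, clone names, chromosome Y genes and shared symbols. The 3' UTR search was chosen after the values were seen. Alternatives were a stricter FDR of 0.001, a minimum of 2-fold, base e, other motif lengths and another distance. Python 3.11.15 with pandas 2.3.3 was used.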

Additional observations from a re-analysis of the deposited data

How the results depend on the processing

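No paired analysis was possible because the table holds no value per library, and for the same reason no replicate could be left out. With an FDR below 0.001, the number of the 3 genes called was 0 for HuRKO over WT at rest (2 at 0.05), and with a minimum of 2-fold it was 1. With a minimum of 2-fold, 1 gene was called for activation of HuRKO cells (2 without it). ASNS in HuRKO over WT after activation lost its call under both rules, while TRIB3 and WARS kept theirs there. WARS lost its call at rest under both, ASNS lost its call at rest under the stricter FDR, and WARS in activated HuRKO over resting HuRKO cells lost its call under the 2-fold minimum. With each call counted once under each of the 2 stricter rules, 6 of 20 were lost. Of 74 list counts above 0, also counted once under each of the 2 rules, 18 moved by over 1.5 times. The promoter element was found in 2 of the 3 genes as TGATG, which 37.7% of genes hold, and in 0 as TGATGNAAT. The cause was not tested. Setting groups below the floor to the floor changed none of the 3 differences between responses, since no level of these genes lies below it. If the deposited changes were natural logarithms, the levels in activated HuRKO, activated WT, resting HuRKO and resting WT cells would be 672, 7416, 666 and 621 for TRIB3, 3726, 27249, 1443 and 1120.4 for WARS, and 51.7, 137, 1.92 and 7.13 for ASNS, with the same order of groups. By the largest single difference in place of the Euclidean distance, the 3 nearest genes of TRIB3 and of WARS were the same, and 2 of 3 were for ASNS. The depth of the libraries is unknown, and ASNS has the fewest counts.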
